A study of Mus musculus with 2 samples.

Results

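The amino acid transporter families examined here are the solute carrier families SLC1, SLC3, SLC6, SLC7, SLC36, SLC38 and SLC43. Every probe set with a single annotated gene symbol starting with Slc1a, Slc3a, Slc6a, Slc7a, Slc36a, Slc38a or Slc43a was taken, which gave 67 probe sets for 43 genes, of 20380 probe sets and 12393 genes with a single symbol in the whole series. No probe set of the SLC36 family met this rule, and in all 18 of 61 listed genes of these families were not analysed here. The RNA came from livers of male apolipoprotein E-deficient mice with a C57BL/6J strain background, given as 2 months old in the labels. The control array carried pooled RNA of mice kept for 11 weeks on a Western diet that was semipurified. The other array carried pooled RNA of mice whose Western diet held 0.01% oleanolic acid, a plant triterpenoid, at 10 mg/kg/day over the same 11 weeks. The apolipoprotein E deficiency and the Western diet were thus shared by both groups, and no group without them was analysed here. The growth protocol given for both samples names oleanolic acid, the control included, so the direction of each ratio rests on the titles and the diet stated for each sample. How many animals each pool held is not given in the sources used here. Since each diet has 1 pooled array, no test of the diet was possible, and each difference describes these 2 arrays.

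Amino acid transporters of the plasma membrane set how much of each amino acid enters or leaves a cell. Some are driven by sodium and concentrate their substrates, others are exchangers that trade an amino acid inside for one outside, and facilitators let amino acids run down their gradient. In the liver, hepatocytes take up glutamine, alanine and other glucogenic amino acids from portal blood through sodium-coupled carriers, clear arginine slowly through a low-affinity carrier, and release or take up glutamine according to their position in the lobule. Many SLC7 proteins work only when bound to an SLC3 glycoprotein, the heavy chain, which brings them to the cell surface.

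Values are linear MAS5 signals of a probe set, in arbitrary units that were scaled to the same trimmed mean on both arrays. A signal depends on the probe sequences, so a level was compared between arrays within a probe set. Signals were set against each other across probe sets only to sort them into bright and dim ones and into bands of like precision, and say nothing of which gene is expressed more. A probe set was called bright when its signal reached the median of its array, 61.5 on the control array against 59.3 with oleanolic acid, on at least 1 of the 2 arrays, and dim otherwise. A gene with a bright probe set was called measured. Its log2 ratio (oleanolic acid over control) averages its bright probe sets, and its signals are their geometric means. The error is the probe set SD. Where several probe sets of a gene were bright, this is the SD between them. Where 1 was bright, it is the SD found between probe sets of one gene over all genes of like signal, 0.29, 0.21, 0.17 and 0.13 in 4 bands of rising signal. It covers probe error within these arrays and no variation between mice.

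Of the 43 genes, 18 were measured and 25 had only dim probe sets. The share measured was 41.9%, against 57.6% over all genes. It was 27 of 33 for the SLC25 mitochondrial carriers and 105 of 197 for the remaining SLC genes. Among the 18 measured members none passed the log2 ratio of 1.5 that the submitters' design text names, where 0.392% of 7137 measured genes did, and none passed 1, where 1.02% of genes did. One member, Slc7a5, lay above 0.5, against 2.63% of all genes, and no member lay below -0.5, against 3.24%. The probe set of Slc7a5 was bright on 1 array only. Of all 605 such probe sets 38.2% were past 0.5 in either direction, against 4.50% of those bright on both arrays. The members' median log2 ratio was -0.04 and that of all measured genes 0.0012. Of the members 11 lay below 0, or 61.1%, against 49.7% of all genes. The SLC25 carriers had a median of -0.04 with 17 of 27 below 0, and the remaining SLC genes a median of -0.03 with 63 of 105 below 0. The shares below 0 of these 3 sets of carriers thus lay close together.

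**Figure D1:**
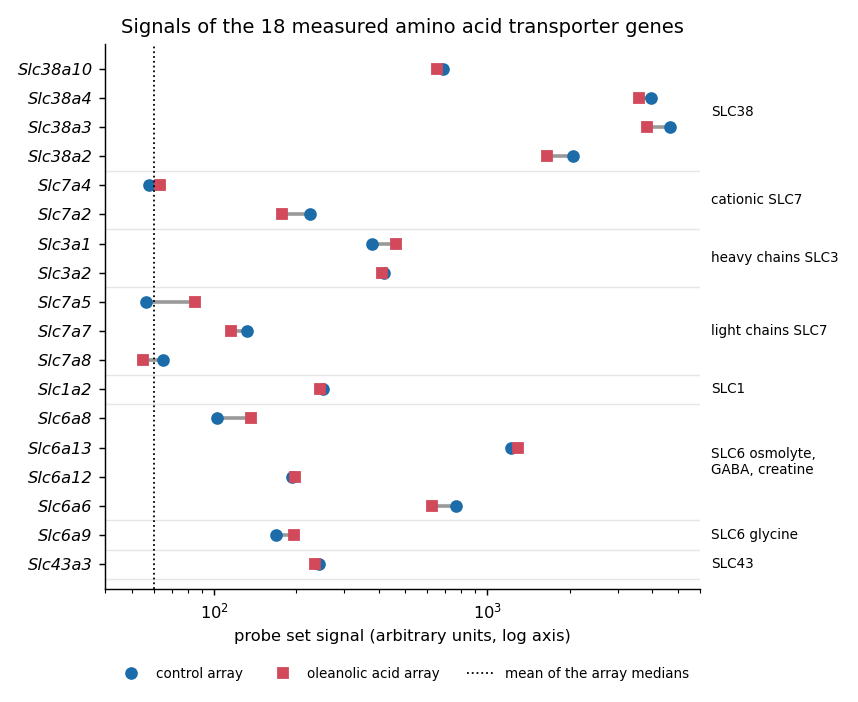
Signal of each of the 18 measured member genes on the control array (circles) and the oleanolic acid array (squares), on a log axis in arbitrary units and grouped by family and role. The 4 SLC38 genes and Slc7a2 have the square to the left of the circle, while Slc7a5, Slc6a8 and Slc3a1 have it to the right. The dotted line is the mean of the 2 array medians.

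The 4 measured sodium-coupled neutral amino acid transporters of the SLC38 family had log2 ratios from -0.32 to -0.07, with a median of -0.22. All 4 lay below 0, also under the scaling alternatives, as did 49.7% of all measured genes and 60.0% of the remaining SLC genes, and the probe sets of one of them, Slc38a10, lay on both sides. Slc38a2 encodes an alanine and small neutral amino acid carrier that cells raise when amino acids are scarce. Its signal was 2058 on the control array against 1652 with oleanolic acid, giving a log2 ratio of -0.32 (probe set SD 0.13). Slc38a3 encodes a glutamine, histidine and asparagine carrier of hepatocytes. It had signals of 4681 and 3849, giving a log2 ratio of -0.28 (probe set SD 0.13). For both genes the distance from 0 was more than 2 times the probe set SD. The same held for Slc7a2 and Slc6a6, also below 0, and for Slc7a5, above 0. Slc7a5 passed the filter only through the array where it was higher, so its distance from 0 is tied to that selection. The share of all measured genes past that multiple was not counted, so the multiple does not set these genes apart. The SD holds no variation between mice.

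Slc38a4, a carrier with high expression in liver, was read by 2 bright probe sets. The first had signals of 4767 on the control array against 4055 with oleanolic acid, giving a log2 ratio of -0.23, and the second 3298 and 3156, giving a log2 ratio of -0.06. Both lay below 0, and their mean was -0.15 (SD 0.12, n = 2 probe sets). Slc38a10 had 7 probe sets, of which 3 were bright. These had signals of 1038 and 967, of 850 and 720, and of 371 and 407, so 2 were lower and 1 was higher on the oleanolic acid array. The mean log2 ratio was -0.07 (SD 0.19, n = 3 probe sets), smaller than the disagreement between its probe sets. Of its 4 dim probe sets 1 was at the floor on both arrays and the others had log2 ratios of 0.31, -0.26 and -1.32, and the gene was at -0.22 when they were included.

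The other SLC38 genes, Slc38a1 and Slc38a5, were dim. Slc38a1, a glutamine carrier of brain and dividing cells, had signals of 41.1 on the control array against 46.0 with oleanolic acid. Slc38a5 had 4.5 and 4.8, below the floor of 10.7 and 10.1 set at the 25th percentile of each array.

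The start regions of 11 of the 18 measured members were available from RefSeq (GRCm38.p6) in 25 windows of 250 bases upstream of a transcript start. They were searched on both strands for 5 short motifs, and stretches of the SLC38 genes with a match are shown because these genes lay on the same side of 0. The capitals mark TGACNNNGC, the letters of the antioxidant response element core, in Slc38a2, and TATAAA, the letters of a TATA box, in Slc38a4. The Slc38a2 stretch is chr15:96699729-96699828 on the minus strand and ends at the base before the start. The Slc38a4 stretch is chr15:97031364-97031463 on the minus strand and runs from 250 to 151 bases before one of its 3 annotated starts.
Slc38a2: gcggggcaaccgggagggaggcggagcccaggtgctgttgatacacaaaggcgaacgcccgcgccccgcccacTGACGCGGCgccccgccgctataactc
Slc38a4: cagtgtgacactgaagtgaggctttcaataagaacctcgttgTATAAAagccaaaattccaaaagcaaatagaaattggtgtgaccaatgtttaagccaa
The match in Slc38a2 lies 27 to 19 bases before the start, and TGACNNNGC was present in 10.2% of all 32851 windows. The match in Slc38a4 lies 208 to 203 bases before the start, and TATAAA was present in 12.4% of all windows. Among the measured members TGACNNNGC was found in 4 of 25 windows, or 16%, against the 10.2% of all windows. These windows belong to 3 of 11 genes, Slc38a2, Slc6a9 and Slc6a13, whose log2 ratios of -0.32, 0.22 and 0.09 lie on both sides of 0. A count of genes is not comparable with a share of windows, since a gene can have several windows. CACGTG, the E-box of clock and MYC family factors, and TTANGTAA, the D-box, were found in none of these 11 genes, and they occur in 6.02% and 2.06% of all windows. A match describes letters only and says nothing about binding.

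Among the cationic amino acid carriers, Slc7a2 was lower on the oleanolic acid array with every probe set. Slc7a2 encodes the carrier for arginine, lysine and ornithine that has a low-affinity form in liver. Its probe sets had signals of 505 on the control array against 420 with oleanolic acid, of 201 and 169, and of 111 and 77.6. The log2 ratios were -0.27, -0.25 and -0.51, with a mean of -0.34 (SD 0.15, n = 3 probe sets), or 1.27-fold lower. This was the lowest value of any measured member, and it is the member with the most bright probe sets on one side of 0. Slc7a4, a relative without an established substrate, had 1 bright probe set with signals of 57.8 and 63.5, giving a log2 ratio of 0.14 (probe set SD 0.29). Slc7a1 and Slc7a3, the high-affinity arginine carriers, were dim. Slc7a1 had 5.9 on the control array against 4.7 with oleanolic acid, and Slc7a3 had 6.5 and 12.1.

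The heavy chains differed from each other. Slc3a1 encodes the partner of the cystine and dibasic amino acid exchanger of kidney and gut. Its signal was 377 on the control array against 465 with oleanolic acid, giving a log2 ratio of 0.30 (probe set SD 0.17). Slc3a2 encodes the common heavy chain of most exchangers, and its signals were 417 and 413, giving a log2 ratio of -0.02 (probe set SD 0.17), with the sign turned by quantile normalization (0.0038) and by centring on signal (0.0069). Slc7a9, a light chain that pairs with Slc3a1, was dim with signals of 2.4 and 9.2, both under the floor.

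The Slc3a1 start region is shown because this gene lay on the other side of 0 from the SLC38 genes. The stretch is chr17:85028247-85028346 on the plus strand of GRCm38.p6 and ends at the base before the start. The capitals mark TATAAA on either strand, where 2 matches overlap.
Slc3a1: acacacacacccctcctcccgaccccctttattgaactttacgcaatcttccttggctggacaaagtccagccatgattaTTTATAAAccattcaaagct
The matches lie 20 to 15 and 18 to 13 bases before the start, and a further one lies 124 to 119 bases before it, outside the stretch. TATAAA was found in 2 of the 11 measured members, Slc3a1 and Slc38a4, which differ in direction. By window this was 2 of 25, or 8%, against 12.4% of all windows.

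The light chains held the only member past 0.5. Slc7a5 encodes the large neutral amino acid exchanger that brings leucine into growing cells. Its signal was 56.2 on the control array against 85.1 with oleanolic acid, giving a log2 ratio of 0.60 (probe set SD 0.29), or 1.51-fold higher. The control signal lay under the array median, so the gene was measured through the oleanolic acid array alone. A log2 ratio past 0.5 was common in that class, at 38.2% of all probe sets bright on 1 array only. It was at 0.47 with the floor at the array median and at 0.49 with 16 added to both signals, below 0.5 in both cases. Slc7a8, a second large neutral amino acid exchanger, had signals of 65.1 and 54.9, giving a log2 ratio of -0.25 (probe set SD 0.29). Slc7a7 encodes the exchanger that passes cationic amino acids out of cells. It had signals of 131.8 and 115.0, giving a log2 ratio of -0.20 (probe set SD 0.21). Neither of the last pair lay farther from 0 than its error, and the difference between Slc7a5 and its relatives has no test with 1 array per diet.

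The amino acid response element core, TGATGNAA, which binds ATF4 with a C/EBP partner, was found in 1 of the 11 measured members with a start region, Slc7a7. It lay in 2 of that gene's 5 windows. This was 2 of the 25 windows of the measured members, or 8%, against 3.45% of all windows. One stretch is shown because Slc7a7 was the only measured member found with this core. It is chr14:54418028-54418127 on the minus strand of GRCm38.p6, from 183 to 84 bases before one annotated start, with the core in capitals.
Slc7a7: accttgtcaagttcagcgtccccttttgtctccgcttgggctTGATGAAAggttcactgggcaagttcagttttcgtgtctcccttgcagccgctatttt
Start regions of Slc7a2, Slc7a5 and Slc38a3 were not used here.

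The remaining light chains were dim, 6 genes with 8 probe sets. Slc7a11, the cystine and glutamate exchanger that supplies cysteine for glutathione, had signals of 11.4 on the control array against 11.8 with oleanolic acid. Slc7a10 had 21.1 and 14.0, and Slc7a6 had 15.7 and 19.0 on one probe set and 16.7 and 7.0 on the other. The 2 probe sets of Slc7a6 thus differed in direction. Slc7a12 had signals of 0.9 and 0.8, and Slc7a13 had none above its floor.

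The SLC1 family holds the glutamate carriers and the neutral amino acid exchangers. Slc1a2, the glutamate carrier that pericentral hepatocytes share with astrocytes, was its only measured gene. Its signal was 249.9 on the control array against 244.7 with oleanolic acid, giving a log2 ratio of -0.03 (probe set SD 0.21). Glul, the glutamine synthetase of the same pericentral cells, was at 0.02. Slc1a5, the exchanger that carries glutamine into many dividing cells, was dim with signals of 20.8 and 16.9. Slc1a1, Slc1a3 and Slc1a6 lay between 0.6 and 6.8 over all their probe sets and both arrays, under the floor.

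In the SLC6 family the carriers of osmolytes, creatine and GABA were measured and most others were dim. Slc6a6, the taurine carrier, had signals of 766 on the control array against 628 with oleanolic acid on its bright probe set, giving a log2 ratio of -0.29 (probe set SD 0.13). A dim probe set of the gene had 27.5 and 20.7, also lower on the oleanolic acid array, and another had 4.3 and 2.2, under the floor. Slc6a13, a GABA and taurine carrier of hepatocytes, had signals of 1217 and 1298, giving a log2 ratio of 0.09 (probe set SD 0.13). Slc6a12, the betaine and GABA carrier, had 193.0 and 198.2, giving a log2 ratio of 0.04 (probe set SD 0.21). Slc6a8, the creatine carrier, had 102.4 and 136.7 on its bright probe set, giving a log2 ratio of 0.42 (probe set SD 0.29). Its other probe set had 54.2 and 48.6 and went the other way, and the gene was at 0.13 with both.

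Slc6a9, a glycine carrier, was read by 2 bright probe sets that disagreed. One had signals of 334.0 on the control array against 331.3 with oleanolic acid, and the other 84.3 and 115.2. The mean log2 ratio was 0.22 (SD 0.33, n = 2 probe sets), and -0.01 with the brighter one alone. The carriers of noradrenaline (Slc6a2), dopamine (Slc6a3) and serotonin (Slc6a4) were dim. Slc6a4 had signals of 7.0 and 1.0, Slc6a2 had 1.5 and 12.0, so both had a signal under the floor. Slc6a3 was above the floor on both arrays, with a log2 ratio of -0.42. The other 7 SLC6 amino acid carrier genes, read by 8 probe sets, were at most 8.7 and 3.7, under the floor on both arrays. Slc6a20a and Slc6a20b among them are close relatives whose probe sets may share targets.

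Slc43a3, a relative of the branched-chain amino acid facilitators that carries purine bases, had signals of 241.4 on the control array against 234.0 with oleanolic acid. Its log2 ratio was -0.04 (probe set SD 0.21).

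**Figure D2:**
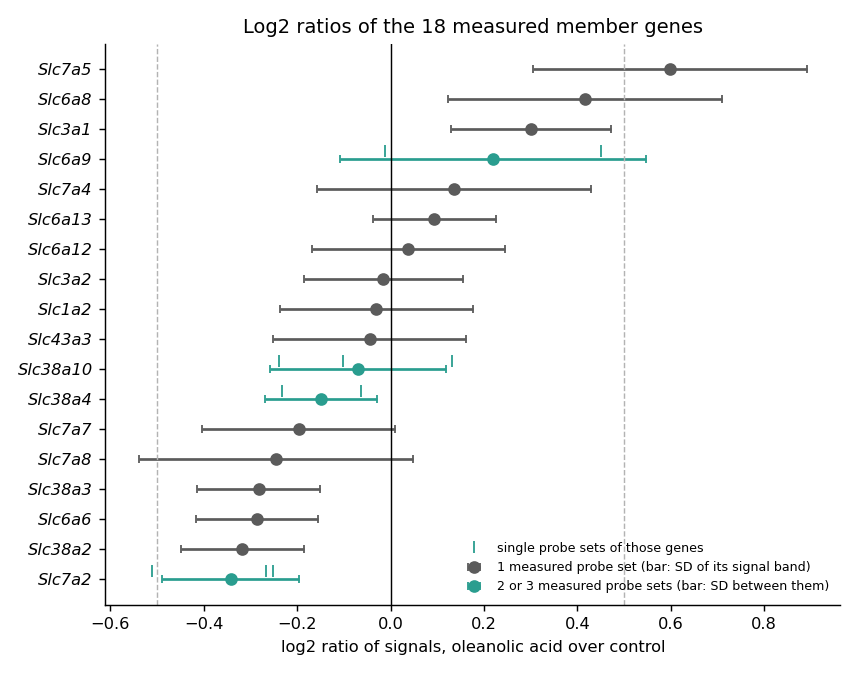
Log2 ratio, oleanolic acid over control, of the 18 measured member genes with the probe set SD as the bar. Ticks above the 4 genes with several bright probe sets mark the single probe sets. Slc7a5 at 0.60 is the only gene past a dashed line at 0.5 or -0.5, and Slc7a2, Slc38a2, Slc6a6 and Slc38a3 form the low end between -0.34 and -0.28.

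Of the 4 members with the lowest log2 ratios, 3 lay in the highest of the 4 signal bands and Slc7a2 in the second lowest. A size of 0.25, chosen after these values were seen, was passed downward by Slc7a2, Slc38a2, Slc6a6 and Slc38a3, 4 of 18, against 12.9% of all measured genes. It was passed upward by Slc7a5, Slc6a8 and Slc3a1, 3 of 18, against 10.6% of all measured genes. In that highest band, which starts at 683 units, 3 of 5 members lay below -0.25, Slc38a2, Slc38a3 and Slc6a6, where 5.45% of all 1561 genes of that band did. The other 2 members of the band were Slc38a4 at -0.15 and Slc6a13 at 0.09. The size was chosen with these values known, and the band is the one that holds 3 of the 4 lowest members. The share of 3 of 5 follows in part from those choices and tests nothing. Those 5 genes are too few to call the band's values particular to these carriers, and each of the 3 low genes rests on 1 bright probe set.

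Bright and dim member probe sets differed in how far their ratios scattered. Of the 67 probe sets 24 were bright, or 35.8%, against 52.5% of all probe sets. For bright members the log2 ratios ran from -0.51 to 0.60, and none was past 1, against 1.04% of all bright probe sets. For the 43 dim members the ratios of the deposited signals ran from -3.50 to 3.35, and 19 were past 1, of which 13 were lower and 6 higher on the oleanolic acid array. Among all dim probe sets 30.4% were past 1, 1570 lower and 1375 higher. The interquartile range of the deposited log2 ratios was 1.52 in dim members and 1.09 in all dim probe sets, and 0.35 in bright members and 0.27 in all bright ones. Between the arrays, log2 signals correlated with a Pearson r of 0.991 over the 24 bright and 0.67 over the 43 dim member probe sets. Over all probe sets r was 0.985 for bright and 0.78 for dim ones. The probe sets share the 2 arrays and are not independent. The same 2 signals set the class, the ratio and r, so these values describe the classes and test nothing.

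**Figure D3:**
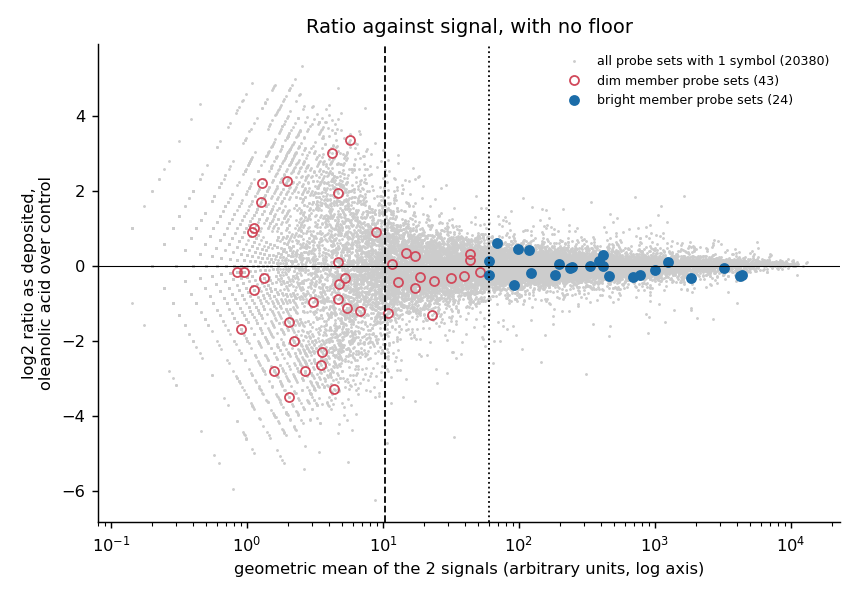
Log2 ratio of the deposited signals, oleanolic acid over control, against the geometric mean of both signals on a log axis. Filled circles are the 24 bright and open circles the 43 dim member probe sets, with all 20380 probe sets in grey. The dashed line is the mean floor and the dotted line the mean of the array medians. The bright members stay between -0.51 and 0.60 while the dim ones spread from -3.50 to 3.35.

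Signals raised to the floor hid most of that scatter. On both arrays 25 of the 43 dim probe sets lay at or under the floor, so their floored ratio carries no direction. Of the others, 13 were above the floor on both arrays and 5 on 1 array. With the floor 4 dim probe sets were past 0.5, or 9.30%, against 17% of all dim probe sets. For bright ones this was 2 of 24, or 8.33%, against 6.41% of all bright probe sets. The single dim probe set past 1 was that of Slc38a10 with signals of 36.5 on the control array against 14.6 with oleanolic acid, and the bright probe sets of the same gene lay between -0.24 and 0.13.

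Slc1a4, a neutral amino acid exchanger, shows how little a dim ratio says. One of its probe sets had signals of 1.8 on the control array against 18.4 with oleanolic acid, another 13.7 and 1.4, and the third 35.0 and 28.2. As deposited, the log2 ratios were 3.35, -3.29 and -0.31, so probe sets of one gene pointed in opposite directions by a wide margin.

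At the array median, the 3 probe sets just inside were those of Slc7a8 (65.1 on the control array against 54.9 with oleanolic acid), Slc7a4 (57.8 and 63.5) and Slc7a5 (56.2 and 85.1). The 3 just outside were the second probe set of Slc6a8 (54.2 and 48.6), a probe set of Slc38a10 (39.1 and 48.5) and that of Slc38a1 (41.1 and 46.0). The first 3 were bright on 1 array only, and the other 21 bright member probe sets were bright on both.

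Other genes of amino acid handling were taken from 5 fixed lists. Of 57 measured genes in them, 2 lay above 0.5, where 2.63% of all measured genes did, and 3 below -0.5, where 3.24% did. Among other amino acid transporters 5 genes were measured, 1 above 0.5 and none below -0.5, with a median of 0.16. Slc66a1, which lets cationic amino acids out of lysosomes, had signals of 190.1 on the control array against 279.7 with oleanolic acid, giving a log2 ratio of 0.56 (probe set SD 0.21). Slc15a2, a peptide carrier, was at 0.47 and Slc15a4, a lysosomal histidine and peptide carrier, at -0.37. Among transporter partners and traffic genes none of 5 passed 0.5, and their median was 0.22. Nedd4l, a ubiquitin ligase that removes carriers from the surface, was at 0.37 (probe set SD 0.17) and the kinase gene Sgk2 at 0.36 (probe set SD 0.13).

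The amino acid response list holds the sensor kinase GCN2, the factor ATF4 and their target genes. Of 19 measured genes 1 lay above 0.5 (2.63% of all measured genes) and 3 below -0.5 (3.24% of all measured genes), and the median was 0.06, with 10 genes above 0 and 9 below. Ddit4, an inhibitor of mTORC1, had signals of 126.8 on the control array against 68.8 with oleanolic acid, giving a log2 ratio of -0.88 (probe set SD 0.29). The serine synthesis genes Phgdh and Psat1 were at -0.65 (SD 0.37, n = 3 probe sets) and -0.59 (SD 0.33, n = 2 probe sets). Fgf21, a hepatokine, was at 0.72 (probe set SD 0.17). Atf4 was at 0.18 and its target Asns, the asparagine synthetase, at -0.29. The list thus held values on both sides of 0.

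In the list of amino acid sensing upstream of mTORC1, none of 17 genes passed 0.5 and the median was 0.07. The Ragulator gene Lamtor1 had the largest value, 0.38 (SD 0.33, n = 3 probe sets). Among the glutamine and arginine enzymes of hepatocytes none of 11 passed 0.5 and the median was 0.01. Got1, which moves amino groups between aspartate and glutamate, was lowest at -0.47 (probe set SD 0.13), and the arginase gene Arg1 was at -0.05.

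**Figure D4:**
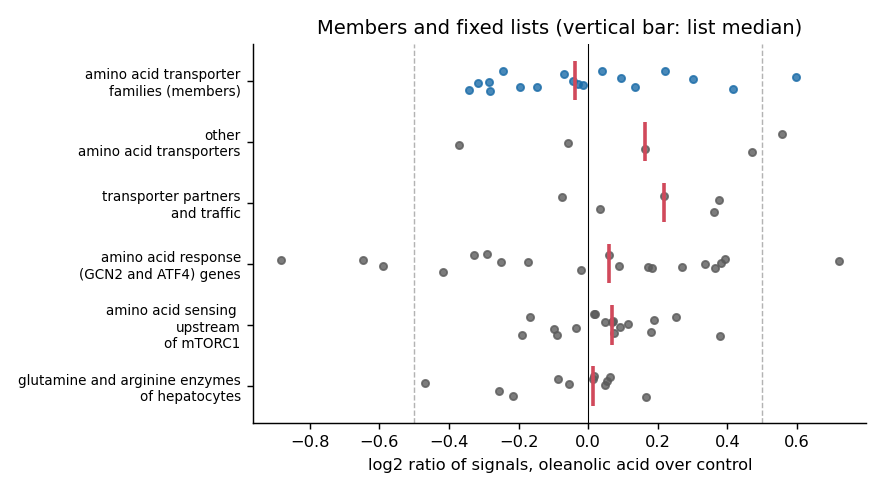
Log2 ratios, oleanolic acid over control, of the 18 measured members and of the measured genes of 5 fixed lists, 1 point per gene, with the median as a vertical bar and dashed lines at -0.5 and 0.5. The members' median of -0.04 is the only one below 0, and the amino acid response list has the widest range, from -0.88 to 0.72.

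The arrays held RNA of liver, with 7 of 7 hepatocyte markers measured and a list median of 0.07. No neuron or glia marker was measured, nor was any of the monoamine carriers. Markers of other cells differed between the arrays in both directions. Their signals were summed over all probe sets of a list, dim ones included. The sums for exocrine pancreas were 1714 on the control array against 472 with oleanolic acid, for B and plasma cells 1594 and 482, for T and NK cells 214.0 and 132.9, and for brown fat and adipocytes 327.6 and 112.6. Measured genes in these lists were 8 of 10, 2 of 5, 1 of 8 and 3 of 5, so the sums include signals that cannot be told from background. Endothelial sums were 2042.1 and 1953.5 and stellate sums 6544.9 and 6461.1. Cholangiocyte sums were 138.1 and 140.7 and erythroid sums 501 and 455.2. Macrophage sums were 11843 and 11391, with a median of -0.09. Of their measured genes 8 of 9 lay below 0, against 49.7% of all measured genes. Only Marco at -0.67 (probe set SD 0.21) and Csf1r at -0.184 (SD 0.177, n = 3 probe sets) lay farther from 0 than their error. Neutrophil sums were higher with oleanolic acid, 282.2 and 346.2. Fewer cells of a type and less RNA per cell cannot be told apart in such samples, and the part of these cells in the members' values was not tested. Apoe itself gave 193.8 and 232.2, and the labels do not say whether its probe set lies within the disruption.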

How the data were processed

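Liver RNA, pooled per diet, was hybridized to Affymetrix 3' expression arrays with biotin label, per the labels' protocols. The authors deposited linear probe set intensities computed by MAS5 (version not stated), per the submitters' processing notes. The mean after trimming 2% at each end was 300.1 on both arrays. Detection calls were not used here. Of 22690 probe sets 64 were array controls, 691 had several gene symbols and 1555 had none. All 43 member genes matched RefSeq (GRCm38.p6) by gene identifier. Start regions came from RefSeq.

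Signals were raised to each array's 25th percentile (10.7 and 10.1) and converted to log2 in Python 3.11.15 with pandas 2.3.3. The pooled probe set SD over 2427 genes was 0.20. The 0.5 and 0.25 sizes are descriptive. The procedure was tested on simulated data. Members and lists were chosen with earlier results of these data known. Full values went to measured members past 0.5, the 15 with the highest signals, those with several bright probe sets, probe sets next to the array median and dim ones past 1, and in each list to at most 4 genes with the largest values; Asns, Atf4, Arg1 and Glul were added after their values were seen. The number of arrays limits the precision, and samples were grouped by title, which the stated diet of each sample matches.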

Additional observations from a re-analysis of the deposited data

How the results depend on the processing

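The count of 1 member past 0.5 depends on the settings: it was 0 with the floor at the array median, 0 with 16 added to both signals, 0 when both signals had to reach the median (which leaves Slc7a5 out) and 2 of 43 with dim probe sets included. The 4 dim member probe sets past 0.5 became 0 with the floor at the array median, by construction, and 26 with no floor, a setting added after seeing the data. Those 26 are 60.5% of the dim member probe sets, against 52.8% of all dim probe sets. The members' median lay between -0.08 and -0.01 over 9 alternatives. Its low end came with dim probe sets included and equals the log2 ratio of the 2 floors, so the floor set that value. In the other alternatives the median lay between -0.04 and -0.01. Of the 18 genes 16 kept their sign in every alternative that measured them, and the exceptions were Slc3a2 and Slc6a9. The count of list genes past 0.5 was 4 or 5 in 3 alternatives. No paired analysis was possible because each diet has 1 array. Dim signals cannot be told from background here, since no detection calls were used.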
